A study of Rattus norvegicus with 23 samples.

Results

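Genes of extracellular ATP and adenosine signalling were followed in the deposited log2 table of microglia from Wistar rats of both sexes, operated on at 7 days of age. They were chosen by name as 4 adenosine receptors (Adora1, Adora2a, Adora2b and Adora3), 3 nucleotide receptors (P2rx4, P2rx7 and P2ry6) and 3 enzymes (Entpd1, Nt5e and Ada). All 10 were found among the 20301 genes of the table. ATP leaves stressed or dying cells and opens the P2X channels, while UDP is the ligand of P2Y6, a receptor that drives phagocytosis by microglia. CD39, the product of Entpd1, takes phosphates off ATP and ADP, CD73, the product of Nt5e, turns the resulting AMP into adenosine, and adenosine deaminase, the product of Ada, turns adenosine into inosine. Adenosine acts on its own receptors, of which those encoded by Adora1 and Adora3 inhibit and those encoded by Adora2a and Adora2b stimulate the formation of cyclic AMP. In the brain this chain is known for guiding microglial processes to sites of injury and for restraining inflammation.

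The 23 samples fell into 4 groups. Sham pups (n = 6) had a neck incision under isoflurane, and LPS pups (n = 5) had the same after 0.1 mg/kg of Escherichia coli lipopolysaccharide (LPS, a bacterial cell wall component that triggers inflammation) had been injected 4 h earlier. NaCl/HI pups (n = 6 samples) received saline, ligation of the left common carotid artery and 50 min of hypoxia at 8% oxygen, which together cause a mild hypoxic-ischemic (HI) injury. LPS/HI pups (n = 6 samples) received LPS 4 h before the same ligation and hypoxia. Microglia were sorted 24 h after the operation with CD11b/c magnetic beads, which also bind other myeloid cells. A whole brain of 1 pup made up each sample of Sham and of LPS, whereas the HI samples pooled ipsilateral hemispheres from 2 pups, so HI cannot be told apart from the tissue taken or from pooling. The methods list no injection for Sham pups, whereas the deposited design text speaks of sensitization by LPS or NaCl ahead of sham surgery too. If Sham pups had none, the injection cannot be told apart from the treatment in any comparison with Sham or in the interaction.

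The values were log2 values on the rlog scale, from which the authors had removed 3 surrogate variables, and they are not per gene length, so levels of the members are compared only between groups of the same gene. Read depth per sample is unknown, and the medians of the libraries ranged from 7.75 to 7.82. Compared with the group means over all genes (each sample left out of its own mean), 20 of 23 samples lay nearest to their own group. The exceptions were NaCl/HI replicate 3, nearest to LPS/HI, NaCl/HI replicate 4, nearest to Sham, and LPS/HI replicate 1, nearest to NaCl/HI. Removing surrogate variables takes away variation within groups, which favours samples near their own group, so this count is no independent check. Of 10 microglial marker genes in the table, 9 had mean log2 values between 12.5 and 16.5, while Siglech stood at -1.05; these values, set beside the median of 7.78 over all genes, serve only to check that the markers were present. A gene passed the test when its limma p, adjusted by Benjamini-Hochberg over all 20301 genes of the comparison, was under 0.05. In bulk RNA, fewer cells of a type and less RNA per cell cannot be told apart, which holds for every difference below.

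Among the 10 genes, P2rx7 and Entpd1 fell and Nt5e and Ada rose after LPS alone, and Adora3 fell and Nt5e rose after LPS/HI. The plot of values by sample shows how small these shifts were, since no group mean lay more than 0.53 log2 units from another in any of the 10 genes. The study also asks a fold change above 2 of a differentially expressed gene, taken from DESeq2 with shrinkage. On the rlog values used here, which are a different measure, 0 of the 10 members passed with a fold change above 2. Of all genes this share was 0.069% in LPS against Sham, 0.00493% in NaCl/HI against Sham, 0.0936% in LPS/HI against Sham, 0.0345% in LPS/HI against LPS, 0.0148% in LPS/HI against NaCl/HI, 0.0591% in LPS against NaCl/HI and 0.00985% in the interaction.

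**Figure D1:**
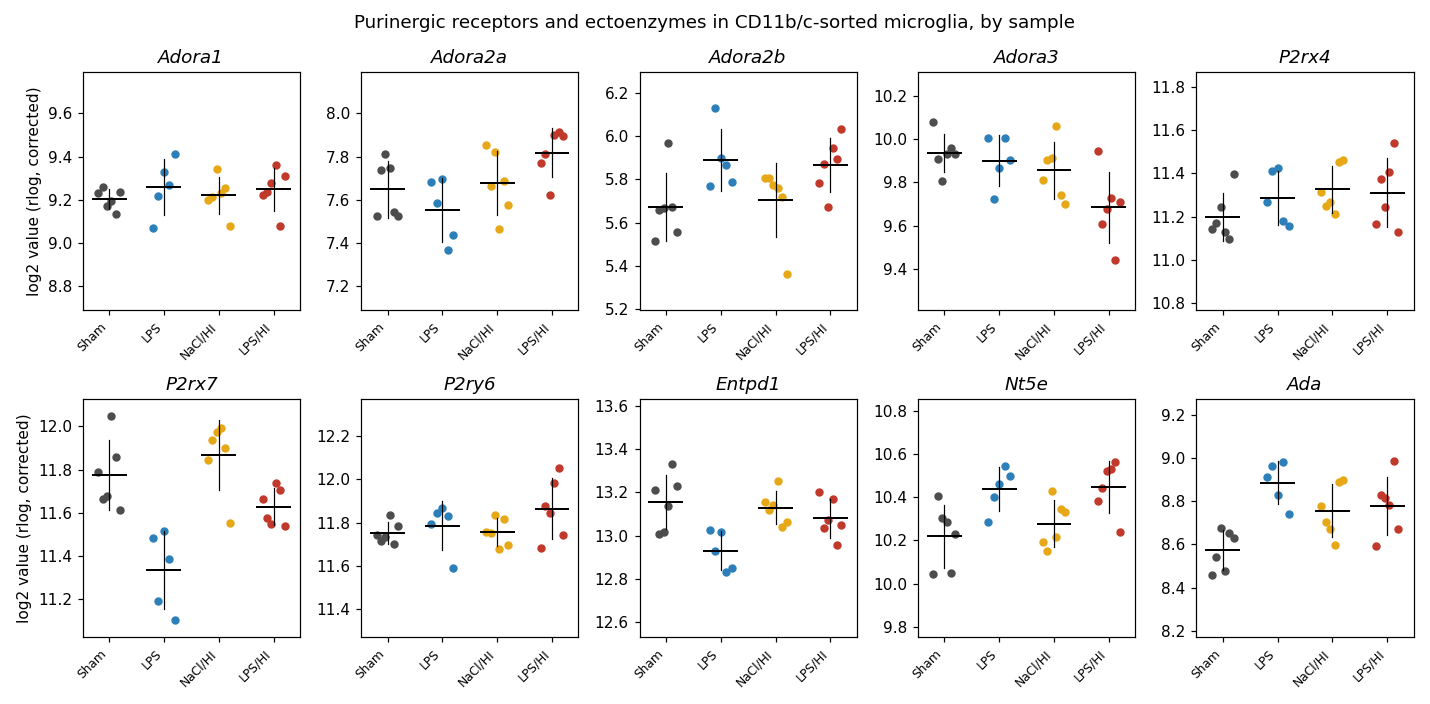
Log2 values (rlog, surrogate variables removed) of the 10 genes in every sample of the 4 groups, with the group mean as a horizontal bar and 1 SD as a vertical line; each panel spans 1.1 log2 units. P2rx7 was lowest in the LPS samples, which reached from 11.11 to 11.52, and Adora3 was lowest in the LPS/HI samples, with a mean of 9.68.

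LPS against Sham asks what inflammation alone does to these genes, and 4 of the 10 members passed the test, 2 lower and 2 higher, where 17.8% of all genes passed, 7.56% lower and 10.2% higher. P2rx7 encodes the ATP-gated channel that is known for starting inflammasome signalling at high ATP. Its log2 values were 11.48, 11.19, 11.52, 11.39 and 11.11 in LPS replicates 1 to 5, and the Sham samples had a lowest value of 11.61, a median of 11.73 and a highest value of 12.05. Every LPS sample therefore lay below every Sham sample. P2rx7 fell by 0.44 log2 units (standard error 0.09, 95% interval -0.62 to -0.25, limma adjusted p = 0.00182), which corresponds to a level that decreased by 26.1%. Libraries are numbered in sequence, and the difference was -0.31 among those numbered 1 to 12 and -0.59 among those numbered 13 to 23.

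Entpd1, the enzyme at the head of ATP breakdown, had log2 values of 13.03, 12.93, 13.02, 12.83 and 12.85 in LPS replicates 1 to 5. In Sham the values reached from 13.01 to 13.33 with a median of 13.17, so the groups overlapped slightly, at the lowest Sham and highest LPS samples. Entpd1 fell by 0.23 log2 units (standard error 0.06, 95% interval -0.35 to -0.10, limma adjusted p = 0.0155). The difference was -0.09 among libraries 1 to 12 and -0.39 among libraries 13 to 23, and in a Wilcoxon rank-sum test, the kind of test that the study applied to marker genes, run here in exact two-sided form with adjustment over all genes, Entpd1 had an adjusted p of 0.101. By that test 2 of 10 members, P2rx7 and Ada, passed (adjusted p = 0.0312 for each), where 19.1% of all genes did.

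Ada rose by 0.31 log2 units in LPS against Sham (standard error 0.07, 95% interval 0.16 to 0.46, limma adjusted p = 0.00486). Its log2 values were 8.91, 8.96, 8.83, 8.98 and 8.74 in LPS replicates 1 to 5, against a lowest of 8.46, a median of 8.58 and a highest of 8.68 in Sham. The groups did not overlap. P2rx7 and Ada were thus 2 of 10 members without overlap between LPS and Sham, where 13.9% of all genes had none. The difference of Ada was 0.34 among libraries 1 to 12 and 0.27 among libraries 13 to 23.

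Nt5e, the adenosine-forming enzyme, had log2 values of 10.29, 10.40, 10.46, 10.54 and 10.50 in LPS replicates 1 to 5. In Sham its lowest value was 10.04, its median 10.26 and its highest 10.41, so that the upper Sham samples reached into the LPS range. Nt5e rose by 0.22 log2 units (standard error 0.07, 95% interval 0.07 to 0.37, limma adjusted p = 0.0441), by 0.13 among libraries 1 to 12 and 0.33 among libraries 13 to 23. This call was lost without Sham replicate 1, 5 or 6 or LPS replicate 2, 3, 4 or 5, with limma adjusted p values between 0.0540 and 0.0957, and with the exact Wilcoxon test (adjusted p = 0.143). It was also lost without a variance trend in limma (adjusted p = 0.0534) and with quantile normalization (limma adjusted p = 0.0941).

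The 6 remaining genes differed between LPS and Sham by -0.10 to 0.22 log2 units and did not pass (limma adjusted p from 0.129 to 0.803). The largest of these differences was that of Adora2b, the low-affinity adenosine receptor, at 0.22 (95% interval 0.01 to 0.42, limma adjusted p = 0.129). Without Sham replicate 4, whose value of 5.97 stood above the other Sham samples, Adora2b passed with a limma adjusted p of 0.0426, as it did with quantile normalization (limma adjusted p = 0.0347). Adora3 differed by only -0.03 (95% interval -0.20 to 0.13), and P2ry6 by 0.03 (95% interval -0.09 to 0.16).

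**Figure D2:**
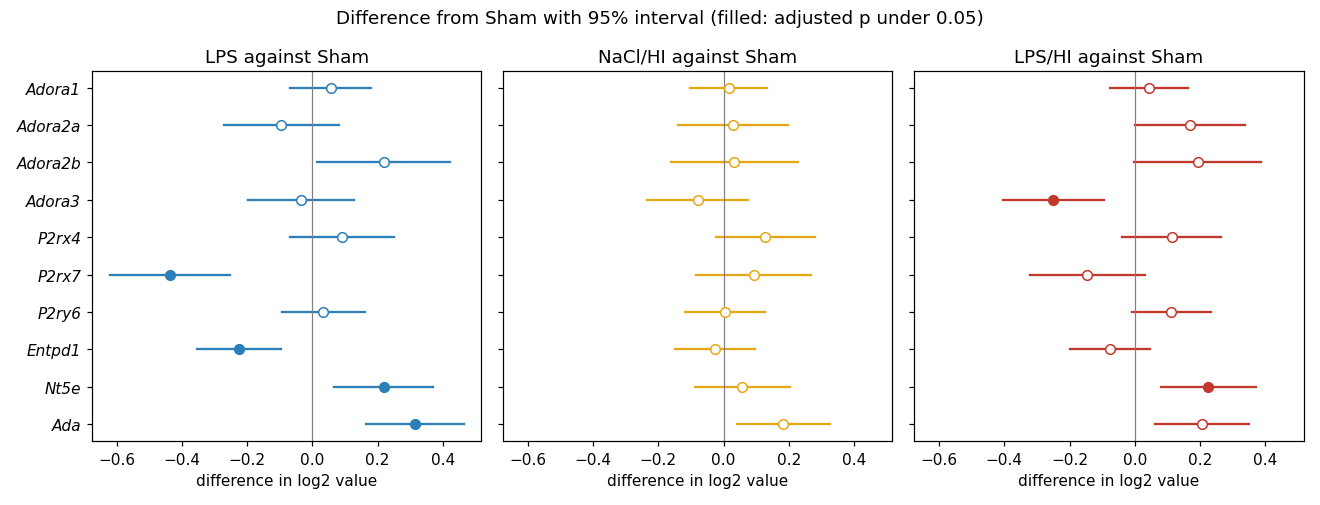
Difference in log2 value from Sham for each of the 10 genes in LPS, NaCl/HI and LPS/HI, with the 95% interval of the limma fit; filled points passed an adjusted p of 0.05. The filled points are P2rx7, Entpd1, Nt5e and Ada in LPS, and Adora3 and Nt5e in LPS/HI, while NaCl/HI has none.

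The 5 genes that passed in any comparison are shown with their promoter sequence, from 250 bases before to 50 bases after the transcription start in RefSeq (build GRCr8, which is not the build mRatBN7.2 that the authors used), because P2rx7 and Entpd1 moved one way after LPS and Nt5e and Ada the other. Sequences run 5′ to 3′ on the strand of the gene. Capitals mark a match to GAGGAA, the core of sites bound by PU.1, the transcription factor of the myeloid lineage, on either strand.
P2rx7 (chr12:39594873-39595172, minus strand): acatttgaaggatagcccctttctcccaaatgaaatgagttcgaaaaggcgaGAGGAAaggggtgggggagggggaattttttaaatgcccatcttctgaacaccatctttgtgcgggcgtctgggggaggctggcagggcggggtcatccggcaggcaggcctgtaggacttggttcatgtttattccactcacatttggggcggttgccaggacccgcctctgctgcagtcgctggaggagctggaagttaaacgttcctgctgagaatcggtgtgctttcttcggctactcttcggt
Entpd1 (chr1:249422614-249422913, plus strand): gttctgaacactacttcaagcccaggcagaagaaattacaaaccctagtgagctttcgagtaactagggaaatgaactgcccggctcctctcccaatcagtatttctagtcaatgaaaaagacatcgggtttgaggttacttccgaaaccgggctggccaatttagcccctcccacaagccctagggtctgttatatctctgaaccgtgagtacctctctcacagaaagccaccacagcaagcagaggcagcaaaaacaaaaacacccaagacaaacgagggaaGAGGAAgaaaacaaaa
Adora3 (chr2:196076792-196077091, plus strand): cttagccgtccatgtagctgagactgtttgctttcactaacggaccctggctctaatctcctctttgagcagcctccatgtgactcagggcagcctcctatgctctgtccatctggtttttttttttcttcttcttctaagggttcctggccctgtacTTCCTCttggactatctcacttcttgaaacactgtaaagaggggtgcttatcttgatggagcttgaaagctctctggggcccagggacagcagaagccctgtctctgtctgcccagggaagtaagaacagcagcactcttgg
Nt5e (chr8:98150675-98150974, plus strand): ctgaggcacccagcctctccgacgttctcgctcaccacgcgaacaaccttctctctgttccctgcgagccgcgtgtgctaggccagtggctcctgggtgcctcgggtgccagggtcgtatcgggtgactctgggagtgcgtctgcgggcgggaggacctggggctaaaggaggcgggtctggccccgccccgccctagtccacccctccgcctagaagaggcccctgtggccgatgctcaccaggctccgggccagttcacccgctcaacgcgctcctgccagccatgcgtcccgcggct
Ada (chr3:172842234-172842533, minus strand): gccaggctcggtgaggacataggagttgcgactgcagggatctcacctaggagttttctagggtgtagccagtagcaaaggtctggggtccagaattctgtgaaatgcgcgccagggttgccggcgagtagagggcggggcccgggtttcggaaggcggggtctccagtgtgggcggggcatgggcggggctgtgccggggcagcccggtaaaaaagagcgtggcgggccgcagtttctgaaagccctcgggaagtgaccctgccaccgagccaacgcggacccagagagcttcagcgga
The core was found once each in P2rx7 (first base at -198 from the start), Entpd1 (at 35) and Adora3 (at -92, on the opposite strand), and in neither Nt5e nor Ada. It was also found in Adora2b (at -175) and P2rx4 (at -235), which passed in no comparison. Of 33469 rat promoters of this length, 27.6% held it. No match was found in these 5 windows for ACGTG (the core of hypoxia response elements, in 19.3% of all promoters), TGACG (the core of cyclic AMP response elements, 21.2%), an NF-kB site of GGGA, any base, TT, any base and CC (1.11%) or an interferon response element of GAAA, any 2 bases and GAAA (3.92%), each searched on both strands. The promoters of Nt5e and Ada held 26 and 22 CpG dinucleotides, those of P2rx7, Entpd1 and Adora3 13, 7 and 2, and those of Adora2b and P2rx4 33 and 21, where the median promoter held 7. A match describes letters in the window and not a site in use.

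NaCl/HI against Sham asks what HI with a saline injection does, and 0 of 10 members passed the limma test, where 0.00985% of all genes passed. At an unadjusted p under 0.05, 1 member and 14.8% of all genes differed, and the exact Wilcoxon test passed 0 members and 0% of all genes after adjustment. That member was Ada, higher by 0.18 log2 units (95% interval 0.04 to 0.33, limma adjusted p = 0.234), with 6 of 6 NaCl/HI samples above the Sham mean. The NaCl/HI values of Ada reached from 8.59 to 8.90 with a median of 8.74, and overlapped with Sham. The differences of all 10 members lay between -0.08 and 0.18, and their intervals between -0.23 and 0.33. P2rx7 was higher by 0.09 (95% interval -0.08 to 0.27). No member was without overlap, where 1.01% of all genes were. Leaving out any 1 library, NaCl/HI replicates 3 and 4 included, left the count of members at 0.

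LPS/HI against Sham asks what inflammation-sensitized HI does, and 2 of 10 members passed, 1 lower and 1 higher, where 8.77% of all genes passed, 3.48% lower and 5.3% higher. None of the 10 was without overlap, where 6.37% of all genes were, and 0 passed the exact Wilcoxon test, where 9.84% of all genes did. Adora3 encodes the A3 receptor, which is known for anti-inflammatory actions, and the study had singled it out on these same samples, so its direction is not independent evidence. Its log2 values in LPS/HI had a lowest of 9.44, a median of 9.69 and a highest of 9.94, against 9.81, 9.93 and 10.08 in Sham. The groups overlapped through LPS/HI replicate 1, the highest sample of its group, and 5 of 6 LPS/HI samples lay below the Sham mean. Adora3 fell by 0.25 log2 units (standard error 0.07, 95% interval -0.41 to -0.10, limma adjusted p = 0.0392), with differences of -0.19 among libraries 1 to 12 and -0.31 among libraries 13 to 23. The call was lost without Sham replicate 1, 5 or 6 or LPS/HI replicate 2, 3 or 5 (limma adjusted p between 0.0531 and 0.0862), and with the exact Wilcoxon test (adjusted p = 0.111).

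The order of the group means of Adora3 was LPS/HI at 9.68 ± 0.16 (SD, n = 6), NaCl/HI at 9.86 ± 0.13 (SD, n = 6), LPS at 9.90 ± 0.12 (SD, n = 5) and Sham at 9.94 ± 0.09 (SD, n = 6). Each pair of neighbours in this order overlapped. The difference of LPS/HI was -0.17 from NaCl/HI (95% interval -0.33 to -0.02, limma adjusted p = 0.411) and -0.22 from LPS (95% interval -0.38 to -0.05, limma adjusted p = 0.160), and neither passed.

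Nt5e in LPS/HI had a lowest log2 value of 10.24, a median of 10.48 and a highest of 10.56, and 6 of 6 samples lay above the Sham mean of 10.22. It rose by 0.23 log2 units (standard error 0.07, 95% interval 0.08 to 0.37, limma adjusted p = 0.0476), by 0.20 among libraries 1 to 12 and 0.26 among libraries 13 to 23. The LPS/HI range overlapped with that of Sham, through LPS/HI replicates 1 and 6. The call was lost without Sham replicate 1, 5 or 6 or LPS/HI replicate 2, 3, 4 or 5 (limma adjusted p between 0.0615 and 0.0937), and with the exact Wilcoxon test (adjusted p = 0.111). It was also lost without the variance trend, with each library centred on its median and with quantile normalization (limma adjusted p = 0.0577, 0.0650 and 0.0675). Its means in LPS, at 10.44 ± 0.10 (SD, n = 5), and in LPS/HI, at 10.45 ± 0.12 (SD, n = 6), differed by 0.01 (95% interval -0.15 to 0.16). These comparisons share the Sham samples, so the rises of Nt5e in LPS and in LPS/HI are not independent of each other.

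Of the 8 members that did not pass in LPS/HI against Sham, Ada came nearest, higher by 0.21 log2 units (95% interval 0.06 to 0.35, limma adjusted p = 0.0639) with 6 of 6 samples above the Sham mean. It passed without LPS/HI replicate 1 (limma adjusted p = 0.0195), and without any of 6 other libraries with p values up to 0.0498, namely Sham replicate 3, LPS replicate 5, NaCl/HI replicates 4, 5 and 6 and LPS/HI replicate 6. Adora2a, which encodes a stimulating adenosine receptor, was higher by 0.17 (95% interval 0.00 to 0.34, limma adjusted p = 0.183), by 0.04 among libraries 1 to 12 and 0.30 among libraries 13 to 23. P2rx7 differed by -0.15 (95% interval -0.32 to 0.03, limma adjusted p = 0.279) and Entpd1 by -0.08 (95% interval -0.20 to 0.05, limma adjusted p = 0.431).

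LPS/HI against LPS asks what HI adds to LPS, and 0 of 10 members passed the limma test, where 1.94% of all genes passed. At an unadjusted p under 0.05, 4 members and 15.5% of all genes differed, and the exact Wilcoxon test passed 0 members and 0% of all genes after adjustment. P2rx7 was higher in LPS/HI by 0.29 log2 units (standard error 0.09, 95% interval 0.11 to 0.48, limma adjusted p = 0.0883). Its LPS/HI values had a lowest of 11.54, a median of 11.62 and a highest of 11.74, all above the highest LPS value of 11.52. It was the 1 member of 10 without overlap here, where 4.17% of all genes had none, and it passed without LPS replicate 3 or NaCl/HI replicate 6 (limma adjusted p = 0.0441 and 0.0434). Adora2a was higher by 0.27 (95% interval 0.09 to 0.44, limma adjusted p = 0.106), with 6 of 6 LPS/HI samples above the LPS mean, and passed without LPS/HI replicate 3 (limma adjusted p = 0.0482). This difference was 0.08 among libraries 1 to 12 and 0.50 among libraries 13 to 23. Its LPS/HI values reached from 7.62 to 7.92 and its LPS values were 7.68, 7.58, 7.69, 7.37 and 7.44, so the groups overlapped through LPS/HI replicate 3. Entpd1 was higher by 0.15 (95% interval 0.02 to 0.28, limma adjusted p = 0.231).

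LPS/HI against NaCl/HI asks what LPS adds to HI in the same kind of tissue sample, and 0 of 10 members passed the limma test, where 0.202% of all genes passed. At an unadjusted p under 0.05, 3 members and 10.6% of all genes differed, and the exact Wilcoxon test passed 0 members and 0% of all genes after adjustment. No member was without overlap, where 1.33% of all genes were. P2rx7 differed by -0.24 log2 units (95% interval -0.41 to -0.06, limma adjusted p = 0.281), with 6 of 6 LPS/HI samples below the NaCl/HI mean of 11.87. NaCl/HI replicate 6, at 11.55, was the 1 sample of its group inside the LPS/HI range. Nt5e was higher by 0.17 (95% interval 0.02 to 0.31, limma adjusted p = 0.379), with 5 of 6 samples above the NaCl/HI mean of 10.28.

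LPS against NaCl/HI sets inflammation beside HI, and 2 of 10 members passed, all lower in LPS, where 8.98% of all genes passed, with 5.32% higher and 3.66% lower. P2rx7 fell by 0.53 log2 units in LPS against NaCl/HI (standard error 0.09, 95% interval -0.71 to -0.34, limma adjusted p = 0.000618). The NaCl/HI samples had a lowest value of 11.55, a median of 11.92 and a highest of 11.99, all above the highest LPS value. The difference was -0.52 among libraries 1 to 12 and -0.57 among libraries 13 to 23. Entpd1 fell by 0.20 (standard error 0.06, 95% interval -0.33 to -0.07, limma adjusted p = 0.0474), with NaCl/HI values from 13.04 to 13.25 above the highest LPS value of 13.03. These 2 members were the only ones of the 10 without overlap, where 7.31% of all genes had none. With the exact Wilcoxon test neither passed (adjusted p = 0.0593 for each), where 0% of all genes passed, and Entpd1 was lost without LPS replicate 2, 4 or 5 or NaCl/HI replicate 1, 2, 3 or 4 (limma adjusted p between 0.0542 and 0.103), without the variance trend (0.0540) and with each library centred on its median (0.0826).

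The interaction asks whether LPS changed a gene differently with HI than without it, as LPS/HI minus NaCl/HI less LPS minus Sham. No member passed the limma test (0 of 10, where 1.08% of all genes passed), and at an unadjusted p under 0.05 there was 1 member, against 15.1% of all genes. That member was Ada, at -0.29 log2 units (standard error 0.10, 95% interval -0.50 to -0.08, limma adjusted p = 0.165). Its LPS difference was 0.31 without HI and 0.02 (95% interval -0.12 to 0.17) with HI, and the group means ran from Sham at 8.57 ± 0.09 (SD, n = 6) through NaCl/HI at 8.76 ± 0.12 (SD, n = 6) and LPS/HI at 8.78 ± 0.14 (SD, n = 6) to LPS at 8.89 ± 0.10 (SD, n = 5). For P2rx7 the interaction was 0.20 (95% interval -0.06 to 0.46, limma adjusted p = 0.471), with LPS differences of -0.44 without HI and -0.24 with HI. This interaction was -0.0090 among libraries 1 to 12 and 0.44 among libraries 13 to 23. An HI term here cannot be told apart from the tissue taken.

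The order of the 4 groups differed between members. P2rx7 ran from LPS at 11.34 ± 0.18 (SD, n = 5) through LPS/HI at 11.63 ± 0.09 (SD, n = 6) and Sham at 11.77 ± 0.16 (SD, n = 6) to NaCl/HI at 11.87 ± 0.16 (SD, n = 6), and of these neighbours only LPS and LPS/HI did not overlap. Entpd1 ran from LPS at 12.93 ± 0.09 (SD, n = 5) through LPS/HI at 13.08 ± 0.09 (SD, n = 6) and NaCl/HI at 13.13 ± 0.08 (SD, n = 6) to Sham at 13.16 ± 0.13 (SD, n = 6), with overlap between all neighbours. Sham was the lowest group for Adora1, Adora2b, P2rx4, P2ry6, Nt5e and Ada. Adora1, the inhibitory A1 receptor, spread least, with group means 0.06 log2 units apart, values from 9.07 to 9.41 over all samples and no comparison below a limma adjusted p of 0.564. P2rx4, an ATP-gated channel of activated microglia, had group means 0.13 apart and values from 11.10 to 11.54, and P2ry6 group means 0.11 apart and values from 11.59 to 12.05. Adora2b had values from 5.36 to 6.13, and the rlog transformation draws low values toward their mean.

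The genes most like each member over the 23 samples were taken from the 3 with the highest Pearson's r of the log2 values, a description of these samples that includes the differences between groups. For P2rx7 they were Fbln7 (0.915), Tmc7 (0.882) and Elk3 (0.878), for Entpd1 Mef2a (0.900), Plcl2 (0.896) and Ccdc93 (0.895), and for Adora3 Trim36 (0.896), AABR07017874.1 (0.846) and Gng2 (0.836). Ada had the highest values of the 10 members, with Nxt1 (0.939), Dtymk (0.919) and Snrpa (0.918). For Nt5e they were Tmx2 (0.833), Pigk (0.829) and Dnajc3 (0.807). Adora2a was nearest to Tgm2 (0.911), Syde1 (0.883) and Zic2 (0.871), P2rx4 to genes that included Cd63 (0.815) and Fxyd5 (0.803), and P2ry6 to Gpr84 (0.843), Cd82 (0.838) and Sra1 (0.830). Adora2b was nearest to Tm7sf2 (0.882), Chrdl1 (0.875) and Masp1 (0.873). Adora1, with Or2y15 (0.775) and Agt (0.746) among its 3, had the lowest values.

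Beyond the 10 members, 65 other genes of ATP and adenosine handling in the table were sorted by role into 7 lists. In LPS against Sham 15 of the 65 passed, 5 higher and 10 lower, beside 17.8% of all genes, and their median difference was -0.06 log2 units. P2ry13 and P2ry12, the ADP receptors of resting microglia, were 2 of 7 P2Y receptors and fell by 0.42 (standard error 0.09, limma adjusted p = 0.00209) and 0.36 (standard error 0.12, limma adjusted p = 0.0387). None of 5 further P2X receptors passed. Of 13 ectoenzymes 2 fell, Enpp1 and Enpp4, of 9 ATP release genes 2 fell, Slc17a9 and Abcc6, and of 7 nucleoside transporters 1 fell, Slc28a3. P2ry12 was lost without Sham replicate 1 or 5 or LPS replicate 2 or 4 (limma adjusted p up to 0.0988), Enpp4 without Sham replicate 4 or LPS replicate 2 or 4, and Slc28a3 without any of 8 libraries, which were Sham replicates 1, 3, 5 and 6 and LPS replicates 2 to 5. With each library centred on its median, P2ry12, Enpp4 and Slc28a3 were lost. Slc28a3 was also lost with quantile normalization, and P2ry12 and Enpp1 with the exact Wilcoxon test. The count of 15 lay between 11 and 16 with any 1 library left out.

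Of 14 enzymes of adenosine and AMP, 3 rose and 1 fell in LPS against Sham. Adk, adenosine kinase, which removes adenosine by turning it into AMP, rose by 0.33 (standard error 0.05, limma adjusted p = 0.000155), and all 5 LPS samples lay above all Sham samples. Ahcy, which releases adenosine from S-adenosylhomocysteine, rose by 0.33 (standard error 0.10, limma adjusted p = 0.0240). Its call was lost without LPS replicate 4 (limma adjusted p = 0.0677) and with quantile normalization. Dpp4, a surface protease that anchors adenosine deaminase in some species, fell by 0.34 (standard error 0.09, limma adjusted p = 0.00922). Its call was lost with the exact Wilcoxon test. Of 10 genes listed as receptor partners, Gnaq and Kcnk13 fell and Gnai2 and Il16 rose, although Il16 encodes a cytokine that is no part of nucleotide signalling.

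In LPS/HI against Sham 6 of the 65 genes passed, 3 in each direction, beside 8.77% of all genes, with a median difference of -0.01. P2ry13 fell by 0.31 (standard error 0.08, limma adjusted p = 0.0253), Slc17a9, the vesicular nucleotide transporter, by 0.19 and Gnaq, a G protein subunit, by 0.14 (limma adjusted p = 0.0265 and 0.0368). Cd38, an ectoenzyme that consumes NAD, rose by 0.35 (standard error 0.11, limma adjusted p = 0.0446), and Ampd3, an AMP deaminase, rose by 0.20 (limma adjusted p = 0.0135). Without LPS/HI replicate 5 neither P2ry13 nor Gnaq passed, Gnaq was also lost without Sham replicate 1 or LPS/HI replicate 2, 3 or 4, and Cd38 without any of 8 libraries (Sham replicates 1, 3, 5 and 6, LPS/HI replicates 1, 2, 4 and 5). The count of 6 lay between 3, without LPS/HI replicate 5, and 10, without NaCl/HI replicate 4 or LPS/HI replicate 1, and was 4 without Sham replicate 1 or LPS/HI replicate 2 or 4. Cd38 was also lost without the variance trend, with quantile normalization and with the exact Wilcoxon test. P2ry13 and Slc17a9 were lost with the exact Wilcoxon test too. P2ry12, at -0.25, did not pass (limma adjusted p = 0.164). Against LPS alone, 1 of 65 genes passed, where 1.22% of all genes passed as higher. It was Enpp1, which turns ATP into AMP in a single step, higher in LPS/HI by 0.39 (standard error 0.08, limma adjusted p = 0.0125).

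In LPS against NaCl/HI 8 of the 65 passed, 3 higher and 5 lower, beside 8.98% of all genes. Among these 8, Enpp1 fell most, by 0.51 (limma adjusted p = 0.000231, standard error 0.08), and its groups did not overlap. P2rx2 and Gjb6 followed, with falls of 0.33 and 0.30 (limma adjusted p = 0.00618 and 0.0320). P2rx2 had low values, with means of 3.68 in LPS and 4.01 in NaCl/HI beside the median of 7.78 over all genes. The rlog transformation draws such values toward their mean. Il16, Adk and Gnai2 rose by 0.26, 0.24 and 0.21 (limma adjusted p = 0.0321, 0.00526 and 0.00424). Gjb6 was lost without LPS replicate 1, 2 or 4 or NaCl/HI replicate 4, and Il16 without LPS replicate 4 or 5 or NaCl/HI replicate 1 or 2. The count of 8 was 5 without LPS replicate 2 or NaCl/HI replicate 1, 4 without LPS replicate 4, and 13 without NaCl/HI replicate 6 or LPS/HI replicate 1. None of the 65 passed in NaCl/HI against Sham, LPS/HI against NaCl/HI or the interaction with limma, while 14 of 65 had an unadjusted p under 0.05 in each of these, beside 14.8%, 10.6% and 15.1% of all genes in that order. Without NaCl/HI replicate 4, the sample nearest to Sham, 4 of 65 passed in NaCl/HI against Sham and 4 in the interaction.

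**Figure D3:**
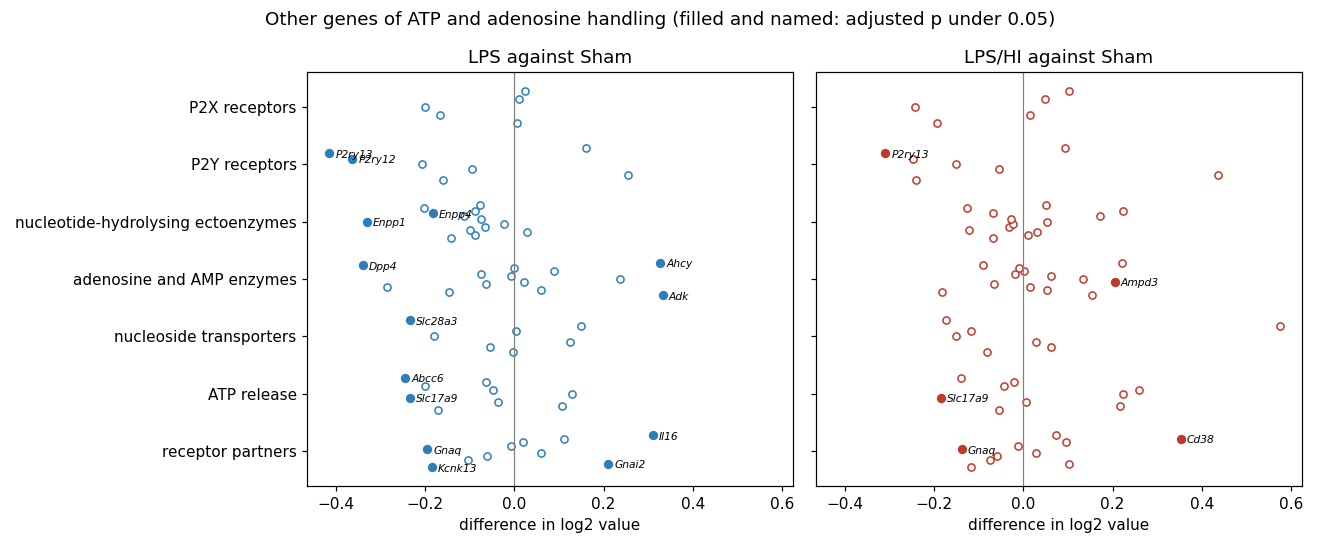
Difference in log2 value from Sham for the other genes of ATP and adenosine handling, all but 1 of the 65, by role, in LPS and in LPS/HI; filled and named points passed a limma adjusted p of 0.05. In LPS 10 of the filled points shown lie left of 0 and 4 right of it, the latter being Adk, Ahcy, Gnai2 and Il16, and in LPS/HI 3 lie left and 2 right.

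Marker genes of the cells in the sort moved beside these results, and their counts stand beside 7.56% of all genes lower and 10.2% higher in LPS against Sham, 3.48% and 5.3% in LPS/HI against Sham, and 3.66% and 5.32% in LPS against NaCl/HI. In LPS against Sham, 4 of 10 microglial markers fell and 0 rose, among them P2ry12, Sall1 and Cx3cr1, by 0.36, 0.25 and 0.17 log2 units, while Csf1r and Itgam, the gene of CD11b, did not pass, at 0.02 and -0.08. The differences of all 10, passed or not, lay between -0.46 and 0.10, with a median of -0.16. The mean log2 value of the list lay between 12.46 and 12.71 in Sham and between 12.34 and 12.51 in LPS. Its part in the falls of P2rx7 and Entpd1 was not tested. Of 9 markers of border-associated macrophages 2 fell and 1 rose, of 8 endothelial markers 4 fell and 1 rose, and of 9 neuronal markers 5 fell, with a neuronal list mean of 6.61 to 6.83 in Sham and 6.35 to 6.58 in LPS. Of 8 astrocyte markers 2 rose, of 9 oligodendrocyte markers 1 rose, of 9 monocyte markers 2 rose, of 10 lymphocyte markers 1 rose, of 12 neutrophil markers 1 rose and 2 fell, and of 10 markers of pericytes and fibroblasts none passed.

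In LPS/HI against Sham, where Adora3 fell and Nt5e rose, 5 of 12 neutrophil markers rose, and the mean of the neutrophil list lay between 6.55 and 7.53 in LPS/HI and between 6.41 and 6.81 in Sham. Of 10 markers of pericytes and fibroblasts, cells that a CD11b/c sort should remove, 4 rose, with a median list mean of 9.84 in LPS/HI, where the lowest sample stood at 9.79, and of 9.65 in Sham, where the highest stood at 9.82. Of 10 microglial markers 1 fell (Sall1), of 9 neuronal markers 3 fell, of 9 monocyte markers 4 rose, of 9 border-associated macrophage markers 1 fell, of 10 lymphocyte markers 2 rose and 1 fell, and of 8 endothelial and 8 astrocyte markers 1 each rose, while 0 of 9 oligodendrocyte markers passed. The part of these cells in the changes of Adora3 and Nt5e was not tested.

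In LPS against NaCl/HI, where P2rx7 and Entpd1 fell, 4 of 10 microglial markers fell. Trem2 and Sall1 were among them, by 0.22 and 0.18 log2 units. The differences of all 10, passed or not, lay between -0.53 and 0.13. At an unadjusted p under 0.05, 8 of the 10 differed, beside 23% of all genes. The list mean lay between 12.46 and 12.59 in NaCl/HI. Of 10 markers of pericytes and fibroblasts 3 fell, of 9 neuronal markers 2 fell, of 12 neutrophil markers 1 fell, of 8 astrocyte markers 2 rose and 1 fell, and of 10 lymphocyte and 9 oligodendrocyte markers 1 each rose. Of monocyte, border-associated macrophage and endothelial markers (9, 9 and 8) 1 each rose and 1 each fell. Their part in the falls of P2rx7 and Entpd1 was not tested.

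In LPS/HI against LPS, where P2rx7 did not overlap and Enpp1 rose, 3 of 10 markers of pericytes and fibroblasts rose (Col1a2, Col3a1 and Dcn) and 5 did not overlap, beside 1.22% and 4.17% of all genes, and their list mean lay between 9.53 and 9.77 in LPS and from 9.79 upward in LPS/HI. Of 8 endothelial markers 2 rose (Flt1 and Esam), and of 12 neutrophil and 9 neuronal markers 1 each rose. Of 9 monocyte markers 1 fell, beside 0.719% of all genes lower. No marker of the other lists passed, the 10 microglial ones included. At an unadjusted p under 0.05, 4 of 10 microglial and 9 of 12 neutrophil markers differed, beside 15.5% of all genes. The microglial differences lay between -0.11 and 0.48, with a median of 0.06. The neutrophil list had a median difference of 0.67. The mean of that list lay between 6.18 and 6.62 in LPS and between 6.55 and 7.53 in LPS/HI. The part of these cells in the values of P2rx7 and Enpp1 was not tested.

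**Figure D4:**
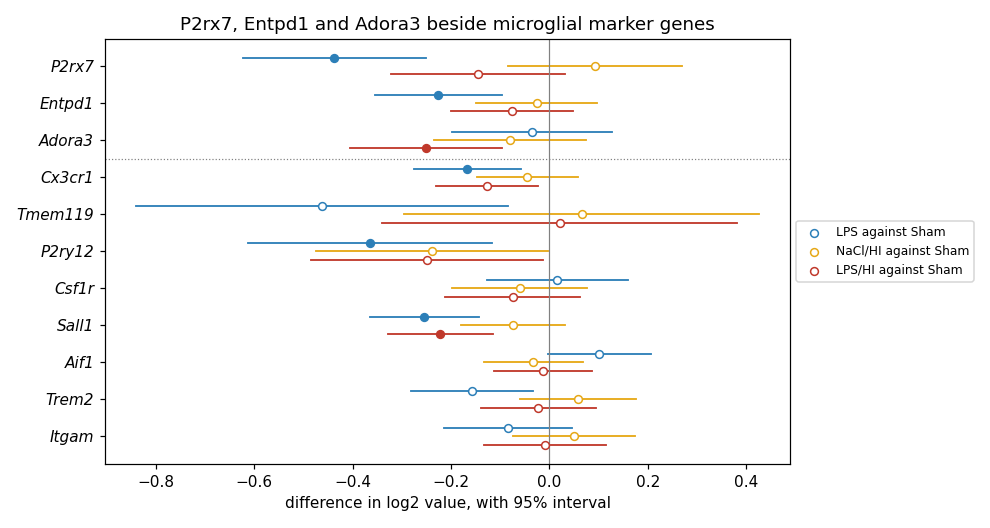
Difference in log2 value from Sham, with the 95% interval of the limma fit, for P2rx7, Entpd1 and Adora3 (above the dotted line) and 8 microglial marker genes (below it), in LPS, NaCl/HI and LPS/HI; filled points passed an adjusted p of 0.05. P2rx7 in LPS, at -0.44, lies beyond Cx3cr1 and Sall1 and near P2ry12 and the wide interval of Tmem119, while Csf1r and Aif1 lie above 0 in LPS.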

How the data were processed

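RNA of CD11b/c-sorted microglia had been sequenced from 23 samples (6 Sham, 5 LPS and 6 of each HI group), grouped here by their titles. Per the study's methods and processing notes, the authors checked reads with FastQC 0.11.9 and MultiQC 1.14, quantified them with kallisto 0.48.0 on mRatBN7.2, applied rlog in DESeq2 and removed 3 surrogate variables with sva and limma. The deposited table gives log2 values, 1 column per sample, for 20301 genes. It holds no counts, so depth and counting error are unknown.

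Groups were compared with limma 3.58.1 in R 4.3.3, fitted once to the 23 samples, with a trend of the variance on the mean and no filter. Residuals spanned 16 dimensions in place of 19, so 16 residual degrees of freedom were used. Removing variables estimated from the same values can make p values too small, exact ones included. Whether replicates were separate litters is not stated. The fit was tested on simulated data.

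The members and lists were chosen with earlier results of these data known. Named genes are the 10 members, up to 3 listed genes per direction and comparison with the largest difference past the test (others were named after their values were seen), and the 3 most alike genes per member, of which some are not reported here. Of 68 further pathway genes written down, 65 were in the table. Symbols of 18625 genes, and all 10 members, occurred in the RefSeq table (GRCr8). It held promoters of 8 members.
Alternatives changed the degrees of freedom, trend, robustness, samples, blocks, filter, scaling, test and fold threshold, and left out each library in turn. Values within library series were added after seeing the data. Python 3.11.15 with numpy 2.4.6, pandas 2.3.3 and matplotlib 3.10.9 was used otherwise.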

Additional observations from a re-analysis of the deposited data

Results flagged for a closer look

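In 40 sets of values, 10 genes in 4 groups, 4 had a sample far from the others by Dixon's test at the 95% level, where chance flags about 1 in 20. Adora2b in Sham replicate 4 was 5.97, against 5.51 to 5.67 in the other Sham samples. Adora2b in NaCl/HI replicate 6 was 5.36, against 5.72 to 5.81 in the others. P2rx7 in NaCl/HI replicate 6 was 11.55, against 11.85 to 11.99 in the others, and so stood within the LPS/HI range. P2ry6 in LPS replicate 5 was 11.59, against 11.79 to 11.87 in the other LPS samples.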

How the results depend on the processing

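Of 680 values of the members under other settings with all libraries, 657 kept their direction and side of the threshold, 13 lost the call, 8 gained it and 2 changed sign. Both sign changes came with each library centred on its median, in LPS/HI against LPS, where P2rx4 stood at -0.00861 and Nt5e at -0.0233. Of 4 members that passed in LPS against Sham, 2 passed with the exact Wilcoxon test and 0 with a fold above 2. Nt5e there was lost without the variance trend and with quantile normalization, which also added Adora2b. Of 2 in LPS/HI against Sham, 1 passed without the variance trend, with centring or with quantile normalization, and 0 with the Wilcoxon test or a fold above 2. Of 2 in LPS against NaCl/HI, 1 passed without the trend or with centring, and 0 with the Wilcoxon test or a fold above 2. In LPS/HI against LPS, where 0 passed, 2 did with 19 residual degrees of freedom, 1 in a fit of those groups alone and 1 with the replicate block. P2rx7 was among them each time, with Adora2a at 19 degrees of freedom. The same 3 settings added Ada in LPS/HI against Sham (limma adjusted p = 0.0315, 0.0341 and 0.0475). With that block on the replicate number, 4, 0, 3, 1, 0, 2 and 0 members passed in LPS, NaCl/HI and LPS/HI against Sham, LPS/HI against LPS, LPS/HI against NaCl/HI, LPS against NaCl/HI and the interaction. Same-numbered samples of different groups deviated from their group means with r over 0.1 in 9 of 33 pairs (median -0.0304, highest 0.470). Shared variation may have been removed with the surrogate variables, so these values cannot tell whether the numbers pair samples. Leaving out 1 library at a time gave 3 to 5 members in LPS against Sham, 0 to 3 in LPS/HI against Sham, 0 to 1 in LPS/HI against LPS, 1 to 2 in LPS against NaCl/HI and 0 in the others. Of 1610 such values 1541 kept direction and call, 27 lost the call, 11 gained it and 31 changed sign, the last in differences near 0 that had not passed. In LPS against Sham, Adora3 from -0.0616 to 0.00947. In NaCl/HI against Sham, Adora1 from -0.00847 to 0.0437, Adora2a from -0.00522 to 0.0728, Entpd1 from -0.0553 to 0.00934 and P2ry6 from -0.0119 to 0.0211. In LPS/HI against LPS, Adora1 from -0.0588 to 0.0265, Adora2b from -0.0587 to 0.0347, Nt5e from -0.0301 to 0.049 and P2rx4 from -0.0237 to 0.059. In LPS/HI against NaCl/HI, Ada from -0.0184 to 0.0596, Adora1 from -2.94e-05 to 0.0621 and P2rx4 from -0.0614 to 0.0212. In the interaction, Adora1 from -0.0746 to 0.0107 and Adora2b from -0.126 to 0.00205. Of 299 values of pathway genes that had passed, under the other settings, 26 lost the call, and of 690 with 1 library left out 49 did, with no change of sign. The counts of 65 pathway genes lay between 12 and 21 under the other settings in LPS against Sham, between 4 and 14 in LPS/HI against Sham, between 0 and 17 in LPS against NaCl/HI and between 0 and 5 in LPS/HI against LPS (0 with the Wilcoxon test, 5 with 19 degrees of freedom). With 1 library left out they lay between 1 and 4 in LPS/HI against LPS and between 0 and 2 in LPS/HI against NaCl/HI. In NaCl/HI against Sham and in the interaction they then lay between 0 and 4. Under the other settings they reached up to 1 in LPS/HI against NaCl/HI, 2 in NaCl/HI against Sham and 4 in the interaction. These alternatives for pathway genes were chosen after seeing the data. The causes of these changes were not tested. The interaction has no fit of only the groups compared and no Wilcoxon test. Depth is unknown, and low rlog values such as those of Adora2b are drawn toward their mean.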
